A study of Mus musculus with 4 samples.

Results

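Pleiotrophin (Ptn), midkine (Mdk) and the cell surface proteins that bind them were followed through the RNAseq profiles of LLC tumors labelled as expressing chemerin (LLC-Chem) or not (LLC). The members are 10 of the 47729 genes of the RPM table. They are both ligands, the receptor phosphatases Ptprz1 and Ptprs, the receptor kinases Alk and Ltk, and the 4 syndecans Sdc1, Sdc2, Sdc3 and Sdc4. They were chosen by family, with the rise of Ptn in these tumors already known, so that their own LLC-Chem values are given as a description and without a p-value, and the calls among them are listed as a description only. RPM, the deposited unit, are the reads on a gene scaled so that all libraries have the same total. LLC is a mouse Lewis lung carcinoma line, grafted under the skin of the back of syngeneic C57BL/6 mice, and the tumors were taken after 5 days. The LLC-Chem cells had been transfected with a pEFIN plasmid for murine chemerin (1-157), a form described as bioactive without further processing, and the labels call the LLC control cells wild type, while the study also describes cells with the empty vector. Each group has 2 libraries, each from a pool of 3 tumors. Individual clones were picked after the transfection, so differences between clones, any difference from transfection and selection, and an effect of chemerin cannot be told apart in these 4 pools.

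Pleiotrophin and midkine are small secreted proteins that bind heparin and make up a family of their own. They act in neural development, wound repair and tumors, where both are known as growth and angiogenic factors. Pleiotrophin binds the chondroitin sulfate chains of the receptor phosphatase PTPRZ1 and blocks its activity, which leaves ALK and other substrates more phosphorylated. Syndecans are transmembrane proteoglycans whose heparan sulfate chains hold these ligands at the cell surface, and syndecan-3 is the classical pleiotrophin receptor of neurons.

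The fitted depth was 28470000 to 33990000 reads per pool. At this depth 3 reads, used as the detection floor, equal 0.0883 to 0.105 RPM. These limits cover counting error only. A mean of 1 RPM or more was found for 13694 genes, of which limma called 1306 genes higher and 1848 lower in LLC-Chem at an adjusted p under 0.05. The counts were 1591 and 1610 under TMM scaling and 1498 and 1688 under median-of-ratios scaling. The chemerin gene Rarres2 was at 102 and 98.2 RPM in the LLC pools and at 106 and 106 RPM in the LLC-Chem pools. The ratio of the means, 1.06, was not called (adjusted p of 0.541 by limma), so that Rarres2 RNA gives no support to the labels. The study did report chemerin activity in culture medium of the transfected cells, and none in that of cells with the empty vector. Groups are called by the labels here. Of 4 markers of the carcinoma line 3 were tested, and limma called 0 of them. The keratin Krt8 was at 167 and 152 RPM in LLC and at 122 and 82.8 RPM in LLC-Chem. Krt18 was at 137 and 110.0 against 139 and 112 RPM, and Vim at 3938 and 3992 against 5167 and 5424 RPM. Epcam, an epithelial adhesion molecule, did not exceed 0.200 RPM.

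Promoters are shown for Ptn, Ptprs and Sdc3, the ligand, the phosphatase and the classical co-receptor whose values are described below and which did not share a direction. They are stretches of 300 bases, 250 before and 50 after the annotated start, from RefSeq on GRCm38.p6. Of the 10 members, 8 have a promoter there. Ptn has 1 start, chr6:36810130-36810429 on the minus strand. Ptprs has an upstream start, chr17:56476431-56476730, and an inner start, chr17:56462172-56462471, both on the minus strand. Sdc3 lies on the plus strand, chr4:130792287-130792586. Capitals mark matches on either strand to 5 motifs. These are ACGTG and GCGTG (cores of the hypoxia-inducible factor site), CACGTG (the E-box, which contains ACGTG on both strands), TATAAA (the TATA box) and GGGCGG (the GC box).
Ptn: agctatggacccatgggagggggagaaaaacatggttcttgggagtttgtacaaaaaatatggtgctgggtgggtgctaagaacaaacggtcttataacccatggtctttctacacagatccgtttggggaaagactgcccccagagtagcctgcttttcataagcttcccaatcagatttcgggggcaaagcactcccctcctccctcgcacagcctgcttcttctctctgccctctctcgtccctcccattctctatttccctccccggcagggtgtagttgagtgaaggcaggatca
Ptprs upstream: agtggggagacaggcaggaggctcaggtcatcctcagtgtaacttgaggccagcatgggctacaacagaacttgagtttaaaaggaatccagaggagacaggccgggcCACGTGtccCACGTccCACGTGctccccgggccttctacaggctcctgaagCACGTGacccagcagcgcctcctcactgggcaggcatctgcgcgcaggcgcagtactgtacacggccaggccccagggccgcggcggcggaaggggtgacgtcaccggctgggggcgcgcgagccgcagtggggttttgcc
Ptprs inner: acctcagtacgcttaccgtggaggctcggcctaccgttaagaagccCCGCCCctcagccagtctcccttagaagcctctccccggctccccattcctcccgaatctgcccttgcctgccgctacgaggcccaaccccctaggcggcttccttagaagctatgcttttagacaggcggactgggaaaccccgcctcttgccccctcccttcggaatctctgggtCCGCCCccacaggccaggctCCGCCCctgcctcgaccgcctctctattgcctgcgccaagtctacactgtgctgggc
Sdc3: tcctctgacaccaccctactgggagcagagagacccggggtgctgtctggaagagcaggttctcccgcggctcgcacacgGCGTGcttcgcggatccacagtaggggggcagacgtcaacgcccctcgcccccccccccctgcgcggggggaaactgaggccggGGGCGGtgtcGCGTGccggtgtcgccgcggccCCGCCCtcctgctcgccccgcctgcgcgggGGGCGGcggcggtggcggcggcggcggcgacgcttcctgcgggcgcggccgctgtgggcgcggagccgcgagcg
The Ptn window held none of the 5 motifs, like 34.3% of the 32851 promoters of this length. The upstream Ptprs window held 3 copies of CACGTG, a motif found at least once in 7.15% of promoters, and 29 promoters in all held 3 or more. The inner Ptprs window held 3 GC boxes and the Sdc3 window 3 GC boxes and 2 copies of GCGTG. Over all promoters, 35.7% held a GC box, 32.4% held GCGTG, 19.6% held ACGTG and 13.6% held a TATA box. A match is a string of letters, and binding of a factor was not measured.

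Of the ligands, Ptn carried by far the larger difference. Ptn (ENSMUSG00000029838) lies on chromosome 6 from 36714929 to 36810220 on the minus strand, and its 5 merged exons share no base with another gene. It was at 19.4 and 22.7 RPM in the LLC pools and at 457 and 442 RPM in the LLC-Chem pools. The groups were far apart, and pools of 1 group were close together. Its mean went from 21.0 ± 2.33 to 449.6 ± 11.1 RPM (SD, n = 2 each), a ratio of 21.4. Taken pool by pool, the ratio ran from 19.5 to 23.6. At least 597 reads stand behind each LLC value and at least 14812 behind each LLC-Chem value, so counting error is small against the difference. The log2 fold change, on the log2(RPM + 0.5) scale, was 4.39 with a standard error of 0.11. Ptn was number 3 from the top of the 13694 genes by log2 fold change on this scale. The rank depends on the added 0.5, since Map2 and Kera, described below and under 0.5 RPM in LLC, had larger ratios of means. In level per length it stood at the 49.9th percentile of these genes in LLC and at the 97.8th in LLC-Chem.
Mdk (ENSMUSG00000027239), which is induced by retinoic acid in the embryo, lies on chromosome 2 from 91929805 to 91932297 on the minus strand. It was at 1.95 and 3.15 RPM in the LLC pools and at 1.60 and 0.950 RPM in the LLC-Chem pools. Its values ran in the opposite direction to those of Ptn, without overlap between the groups, but the spread within each group was large. The means were 2.55 ± 0.848 and 1.27 ± 0.459 RPM (SD, n = 2 each), and the log2 fold change was -0.78 with a standard error of 0.32. At 31 to 89 reads per pool, Mdk was the weakest member among those that could be tested. Per kilobase of merged exons, Ptn was 3.84 and 2.78 times as abundant as Mdk in the LLC pools and 110.3 and 179 times in the LLC-Chem pools. Per kilobase of coding sequence these ratios were 8.02 and 5.81 in LLC and 231 and 375 in LLC-Chem.

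**Figure D1:**
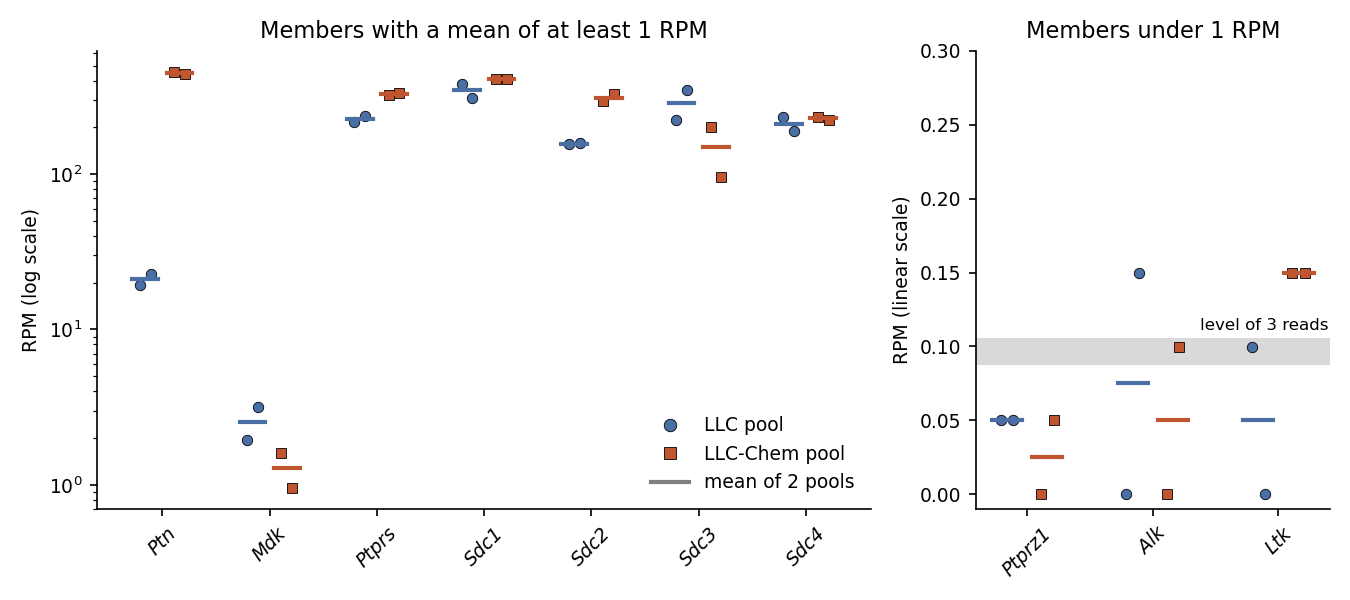
RPM of the 10 members in each LLC pool (circles) and LLC-Chem pool (squares), with the mean of 2 pools as a line, on a log axis for the 7 members with a mean of at least 1 RPM and on a linear axis for the 3 members below it, where the grey band is the level of 3 reads. Ptn moves from about 21 to about 450 RPM, while Ptprz1, Alk and Ltk stay at or under 0.150 RPM in all pools.

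Of the receptors, the one best known for pleiotrophin was all but absent. Ptprz1 (ENSMUSG00000068748, chromosome 6, 22875502 to 23052916, plus strand) was at 0.050 and 0.050 RPM in the LLC pools and at 0 and 0.050 RPM in the LLC-Chem pools, that is, at no more than 1 read per pool. These values are under the level of 3 reads in all 4 pools. The kinase Alk (ENSMUSG00000055471, chromosome 17, 71868972 to 72604627, minus strand) was at 0 and 0.150 RPM in LLC and at 0 and 0.0999 RPM in LLC-Chem, or at most 4 reads. Its relative Ltk (ENSMUSG00000027297, chromosome 2, 119751320 to 119760431, minus strand) was at 0.0999 and 0 RPM in LLC and at 0.150 and 0.150 RPM in LLC-Chem, or at most 5 reads. No difference between the groups was detectable at this depth for these 3 receptors, and no fold is given.
Ptprs was the receptor phosphatase of the group that was well expressed. It encodes a phosphatase of the LAR type whose ectodomain binds heparan and chondroitin sulfate chains. The gene (ENSMUSG00000013236) lies on chromosome 17 from 56412426 to 56476483 on the minus strand. Of the promoters printed above, the upstream one lies at its start and the inner one within it. It was at 216 and 238 RPM in the LLC pools and at 323 and 332 RPM in the LLC-Chem pools. The groups did not overlap, and the gap between them exceeded the spread within either. The means were 227 ± 15.6 and 327 ± 6.36 RPM (SD, n = 2 each), a ratio of 1.44, and the log2 fold change was 0.53 with a standard error of 0.10.

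The 4 syndecans were all abundant, and their values did not share a direction. Only Sdc2 was called by limma, and no test compared the syndecans with each other. Sdc2 (ENSMUSG00000022261, chromosome 15, 32920723 to 33034935, plus strand), the syndecan mainly of mesenchymal cells, was at 157 and 158 RPM in the LLC pools and at 294 and 327 RPM in the LLC-Chem pools. Its LLC pools were nearly equal and both LLC-Chem pools lay well above them. The means were 157 ± 0.317 and 310.4 ± 23.2 RPM (SD, n = 2 each), a ratio of 1.97, with a log2 fold change of 0.97 and a standard error of 0.10.
Sdc3 (ENSMUSG00000025743, chromosome 4, 130792537 to 130826319, plus strand) went the other way. It was at 224 and 348 RPM in the LLC pools and at 201 and 96.4 RPM in the LLC-Chem pools. The lower LLC pool and the higher LLC-Chem pool were close to each other, so the gap was smaller than the spread within either group. The means were 286 ± 87.5 and 149 ± 74.0 RPM (SD, n = 2 each), and the log2 fold change was -1.0 with a standard error of 0.38. Without the second LLC-Chem pool it was -0.47, and without the first it was -1.53. Of the merged exon bases of Sdc3, 7.73% lie under exons of the antisense genes Gm26716 and Gm12970, and whether strand was used in counting is not given in the sources used here.
Sdc1 (ENSMUSG00000020592, chromosome 12, 8771323 to 8793715, plus strand), the main syndecan of epithelia and plasma cells, was at 383 and 310.5 RPM in LLC and at 413 and 411 RPM in LLC-Chem. Both LLC-Chem pools were above the LLC pools, but by less than the distance between the LLC pools. Its log2 fold change was 0.26 with a standard error of 0.14. Sdc4 (ENSMUSG00000017009, chromosome 2, 164424247 to 164443887, minus strand), the syndecan of focal adhesions, was at 233 and 189.7 RPM in LLC and at 234 and 224 RPM in LLC-Chem. These pools overlapped, with a log2 fold change of 0.12 and a standard error of 0.13. The sign for Sdc4 turned to -0.02 when the second LLC pool was left out.

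Counted over the members, 6 of the 7 that could be tested had groups that did not overlap, where 72.5% of all genes tested had this. Of these, 4 were higher in LLC-Chem and 2 lower, where 33.1% and 39.3% of all genes were. By limma, 3 of the 7 (Ptn, Ptprs and Sdc2) passed an adjusted p under 0.05 as higher, where 9.54% of all genes did, and 0 passed as lower, where 13.5% did. At an unadjusted p under 0.05, limma placed 1 member lower, and edgeR and DESeq2 also called 0 members lower. Since the comparison was known when the members were chosen, these counts test nothing and nothing is read from them. Their median log2 fold change was 0.26, beside -0.04 over all genes tested. With any 1 pool left out limma called 0 members, with 3 to 5 of them higher and 0 to 2 lower at an unadjusted p under 0.05. The standard errors are limma's, in which the spread of a gene between pools is drawn toward a trend over all genes tested.

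**Figure D2:**
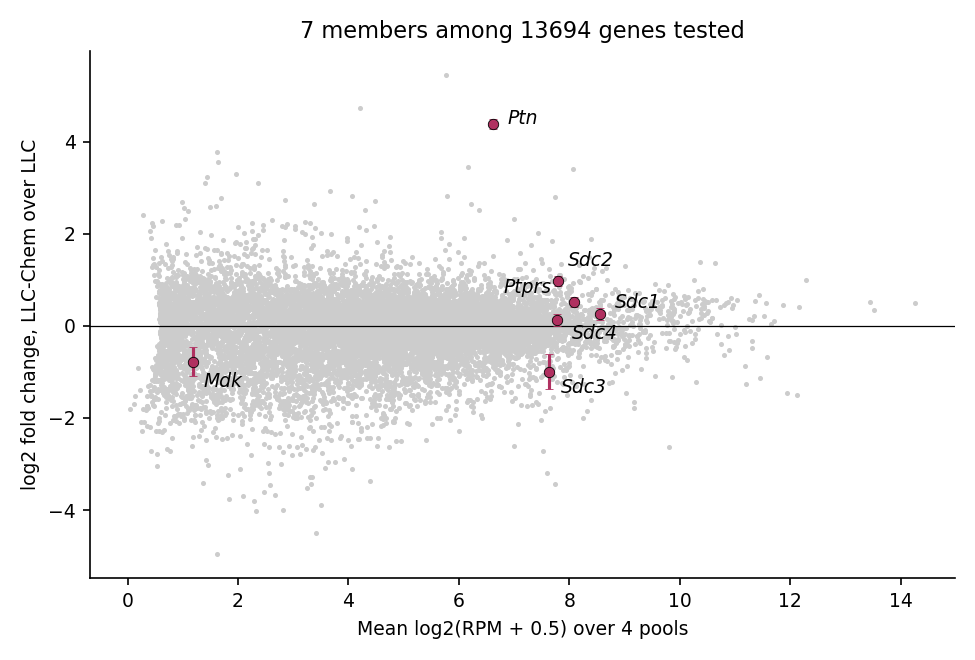
log2 fold change (LLC-Chem over LLC) against the mean log2(RPM + 0.5) over 4 pools for the 13694 genes tested (grey), with 7 members in red and their standard errors. Ptn, at 4.39, is number 3 of all genes tested by log2 fold change on this scale, a rank that depends on the added 0.5, while the 4 syndecans lie between -1.0 and 0.97.

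**Figure D3:**
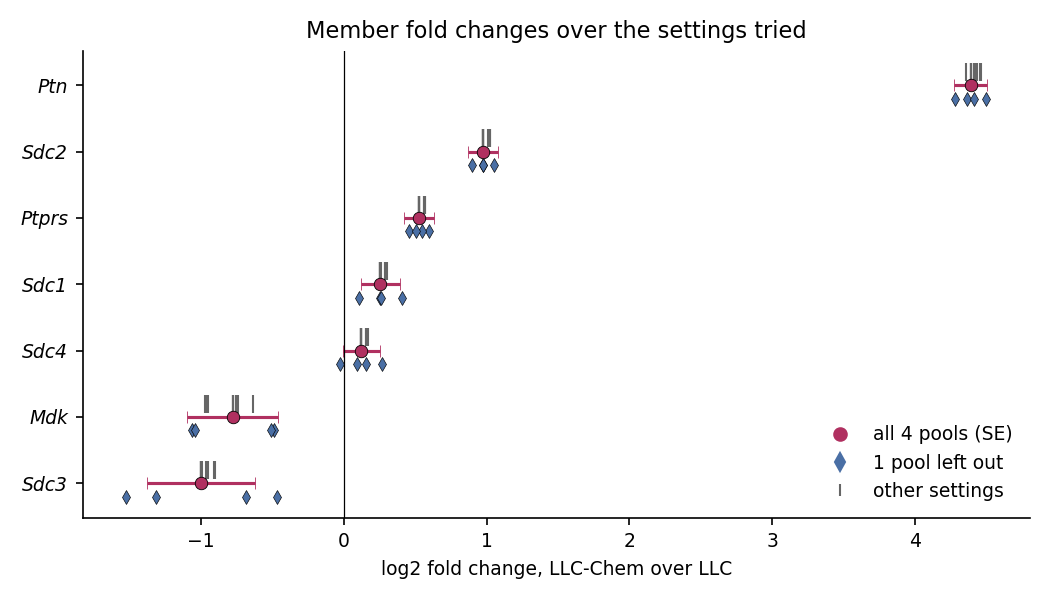
log2 fold change (LLC-Chem over LLC) of the 7 members from all 4 pools (red, with standard error), with 1 pool left out (diamonds) and under the other settings tried (bars). Ptn stays between 4.28 and 4.50, Sdc2 between 0.90 and 1.05, and Sdc3 spreads from -1.53 to -0.47.

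Set per kilobase of merged exons, so that genes can be compared with each other, Ptn moved from place 6 of the 7 members in LLC to place 1 in LLC-Chem, and Sdc3 from place 3 to place 5. In LLC the levels were 91.0 ± 13.5 RPM per kilobase for Sdc1, 82.9 ± 11.9 for Sdc4, 47.7 ± 14.6 for Sdc3, 44.6 ± 0.0899 for Sdc2, 15.2 ± 1.04 for Ptprs, 6.13 ± 0.679 for Ptn and 1.92 ± 0.641 for Mdk (SD, n = 2 each). The pools of Sdc1 and Sdc4 overlapped, as did those of Sdc3 and Sdc2. In LLC-Chem, Ptn came first at 131.0 ± 3.24 RPM per kilobase, above Sdc1 at 108 ± 0.277 (SD, n = 2 each). Sdc4 (89.8 ± 2.72) and Sdc2 (88.0 ± 6.57) followed with overlapping pools. Sdc3 (24.8 ± 12.4) and Ptprs (21.8 ± 0.425) could not be separated either, and Mdk was last of the 7 at 0.962 ± 0.347. Per kilobase of coding sequence Ptn was again first in LLC-Chem, at 863 RPM per kilobase, but Sdc2 came second there at 512 and Ptn (40.4) and Ptprs (39.6) overlapped in LLC.
The syndecans as a group summed to 274 and 259 RPM per kilobase of merged exons in LLC and to 317 and 305 in LLC-Chem. Ptn amounted to 0.0206 and 0.0255 of that sum in the LLC pools and to 0.420 and 0.422 in the LLC-Chem pools. Within the sum, Sdc2 took 16.3% and 17.3% in LLC and 26.3% and 30.4% in LLC-Chem. The share of Sdc3 was 13.7% and 22.4% in LLC and 10.6% and 5.29% in LLC-Chem. Sdc1 held 31.5% to 36.7% and Sdc4 28.8% to 33.4% over all 4 pools. Per kilobase of coding sequence, Sdc2 took 21.6% and 22.6% in LLC and 33.7% and 38.6% in LLC-Chem. Sdc1 took 31.6% and 26.7% in LLC and 28.4% and 29.1% in LLC-Chem on that scale. Ptn amounted there to 0.0310 and 0.0379 of the sum in LLC and to 0.610 and 0.607 in LLC-Chem.

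**Figure D4:**
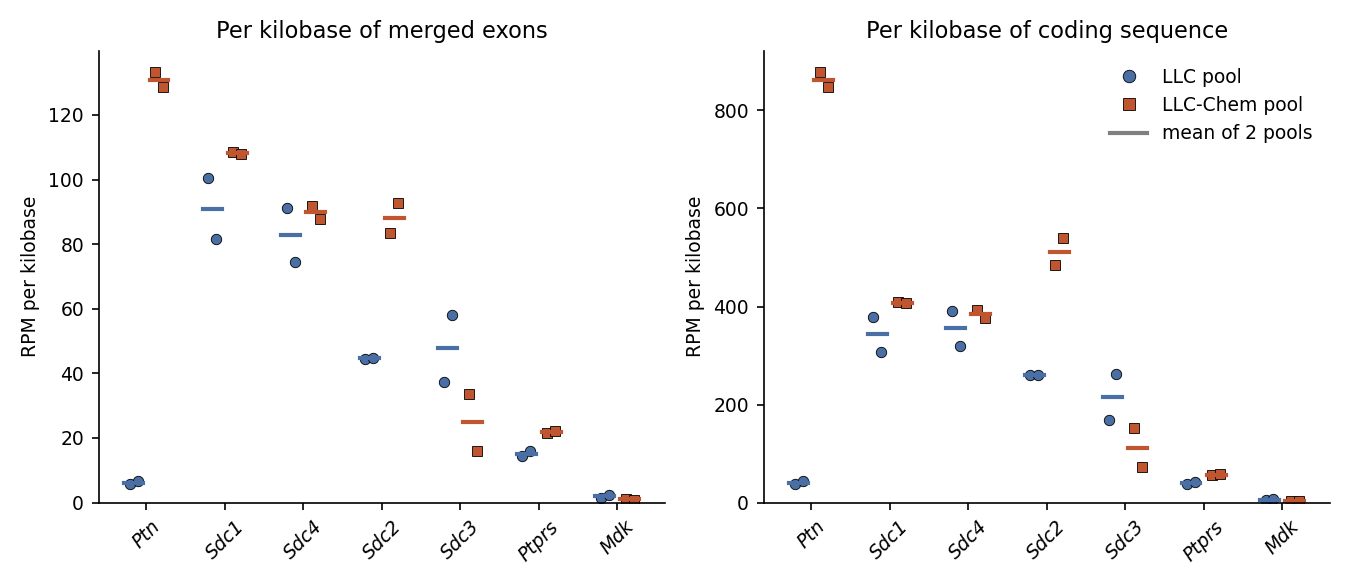
Level per length of 7 members in each LLC pool (circles) and LLC-Chem pool (squares), in RPM per kilobase of merged exons and per kilobase of coding sequence, with the mean of 2 pools as a line. In LLC-Chem, Ptn lies above each syndecan on both scales, and in LLC it lies below all 4.

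Markers of other cell types differed between the groups as well, and their part in the values above was not tested. In tumor tissue, fewer cells of a type and less RNA per cell cannot be told apart. The summed endothelial markers (6 genes) were at 180.0 to 203 RPM in LLC and 34.5 to 59.6 in LLC-Chem, with 5 of 6 called lower by limma. The mural markers (5 genes) were at 194 to 234 and 51.2 to 73.7 RPM, with 4 of 5 lower. The leukocyte markers (8 genes, 6 of them tested) were at 784 to 1062 and 285 to 516 RPM, with 4 of 6 lower. Within this list the macrophage receptor Csf1r ran 329, 532, 217 and 101 RPM over the first and second LLC and the first and second LLC-Chem pool, and the macrophage marker Adgre1 ran 183, 262, 153 and 76.6 RPM. Sdc3 and Mdk had this same order of pools. So did markers of other lists, the endothelial Tek (25.1, 53.2, 17.1 and 11.3 RPM) and the fibroblast genes Col1a1 and Col1a2. Csf1r, Adgre1 and these others were picked after their values were seen. The order held for 4 of the 6 leukocyte markers tested (also Itgax and Ncr1), while Ptprc (124.5, 124.3, 55.2 and 29.3 RPM) and Itgam (133, 129, 79.1 and 68.7 RPM) of the same list had the first LLC pool slightly above the second. Fibroblast markers (6 genes) were mixed, with 1 called higher, 2 called lower and a sum of 23381 to 44289 RPM in LLC and 29632 to 32681 in LLC-Chem. Pdgfra, the fibroblast receptor called higher, ran from 127 and 183 to 256 and 247 RPM, and those called lower were the collagen genes Col1a1 and Col1a2. Of the Schwann cell and glial markers, 0 of the 3 tested were called by limma. Their sum was 19.1 to 44.7 RPM in LLC and 34.8 to 50.5 in LLC-Chem, and the defining factor Sox10 was at 0.650 to 1.25 RPM. Adipocyte markers (4 genes) summed to 19.99 to 28.0 and 14.2 to 39.7 RPM with 1 of 3 tested called higher. Muscle markers (5 genes) summed to 2.35 to 3.10 and 4.15 to 5.35 RPM, with the 1 tested called higher and Ckm and Myh4 at 0 in all pools. Keratinocyte markers (3 genes) summed to 2.90 to 4.45 and 2.05 to 2.10 RPM, and Krt5 and Krt14 did not exceed 0.050 RPM.

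The genes nearest to Ptn over the 4 pools, by the Euclidean distance between log2(RPM + 0.5) values centered on each gene, were Stra6, Map2, Peg3, Enpp2 and Kera, out of 13693 compared. Stra6, the cell surface receptor for retinol uptake, was nearest at a distance of 0.356, with 2.75 and 3.50 RPM in LLC and 94.2 and 96.8 RPM in LLC-Chem. The imprinted gene Peg3 (distance 0.940) was at 20.1 and 22.2 RPM in LLC, the range of Ptn, and at 227 and 248 RPM in LLC-Chem. Map2, a neuronal microtubule protein, lay at a distance of 0.744. Enpp2 (autotaxin) lay at 1.08 with a log2 fold change of 5.46, and Kera (keratocan), a proteoglycan, at 1.13 with one of 3.56. In LLC, Map2 (0.300 and 0.350 RPM) and Kera (0.400 and 0.400 RPM) lay under the 0.5 added to each value. In LLC-Chem, Map2 was at 8.90 and 13.2 RPM and Kera at 15.1 and 6.75 RPM. The added 0.5 therefore partly sets their distances and log2 fold changes. The genes nearest to Mdk were Tm6sf1, Zbtb8a, Fam213b, Batf3 and Cd300lb, at distances of 0.0377 to 0.0692. Batf3, a factor of dendritic cells, was at 3.25 and 4.95 RPM in LLC and at 2.55 and 1.65 RPM in LLC-Chem, and Cd300lb, a myeloid receptor, at 28.1 and 40.6 and at 23.1 and 15.3 RPM. The distance over 4 pools is a description.

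Around the members, 8 lists of 116 genes cover other binding partners, phosphatases and PTPRZ1 partners, ALK adaptors, the enzymes that build the sugar chains, other proteoglycan cores and the proteins that hold or shed syndecans. Of these, 91 could be tested, and limma called 11 higher and 16 lower, or 29.7% beside 23.0% of all genes in either direction. Their median log2 fold change was -0.08, beside -0.04 over all genes. The split depended on scaling, with 16 higher and 11 lower under TMM and 13 higher and 12 lower under median-of-ratios factors. With any 1 pool left out limma called 0 of them in either direction, with 8 to 23 higher and 12 to 25 lower at an unadjusted p under 0.05. Of the 25 called genes named below, only 7 (Lrp8, L1cam, Hs3st1, Tgfbr3, Vcan, Mmp9 and Adam17) kept the call in every setting that used all 4 pools, filtered low values and tested the gene. The share called in each list below is to be read against the 23.0% of all genes. All p-values for named genes below are limma's with Benjamini-Hochberg adjustment over 13694 genes.

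**Figure D5:**
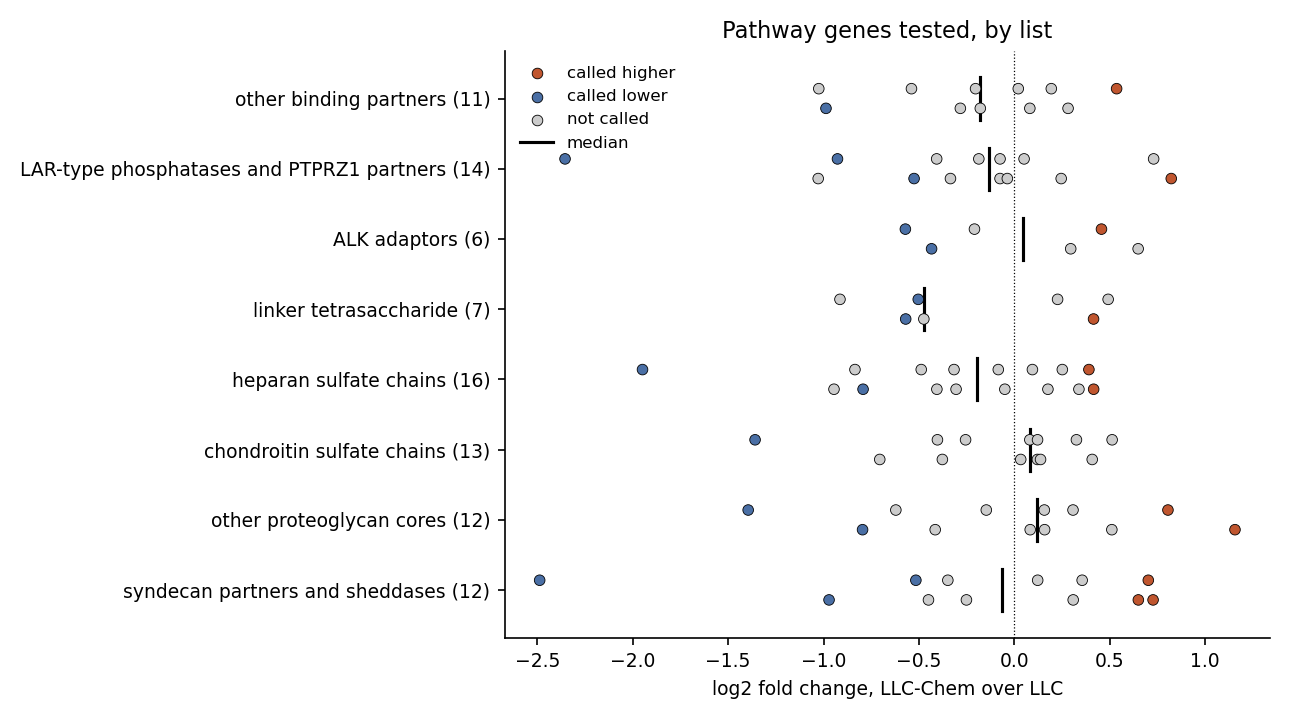
log2 fold change (LLC-Chem over LLC) of the 91 pathway genes tested, by list, with genes called higher in red, called lower in blue and not called in grey, and the median of each list as a black bar. Called genes lie on both sides of 0 in 7 of the 8 lists. The largest falls on this scale are Mmp9 at -2.49 and L1cam at -2.35, a ranking that depends on the added pseudocount. By ratio of means, Hs3st1 fell more (7.82-fold) than L1cam (6.14-fold) and Mmp9 (5.73-fold).

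Of 15 genes listed as further binding partners of pleiotrophin and midkine or as ALK and LTK ligands, 11 were tested, 1 rose and 1 fell (18.2% called). The gene called higher was Lrp6, a Wnt co-receptor, which was at 88.7 and 107.7 RPM in LLC and 139 and 144 RPM in LLC-Chem (limma gave 0.54 on the log2 scale at an adjusted p of 0.036), and the gene called lower was Lrp8, a reelin receptor, which was at 26.4 and 20.04 against 12.9 and 9.99 RPM (limma gave -0.99 on the log2 scale at an adjusted p of 0.0294). Nucleolin (Ncl), an abundant nucleolar protein that also binds both ligands at the cell surface, was at 1441 and 1195 RPM in LLC and at 1168 and 1151 RPM in LLC-Chem, and was not called (limma, adjusted p of 0.433). The ALK and LTK ligands, listed as Fam150a and Fam150b, did not exceed 0.0999 RPM in any pool.
Among phosphatases of the LAR type and partners of PTPRZ1, 14 of 16 were tested, 1 rose and 3 fell (28.6% called). Ptprf, which encodes LAR itself, fell from 4.25 and 4.05 to 2.10 and 1.80 RPM (limma gave -0.93 on the log2 scale at an adjusted p of 0.0334). The neural adhesion molecule L1cam fell from 17.1 and 11.1 to 2.40 and 2.20 RPM, with a log2 fold change of -2.35 and a standard error of 0.25 (limma, adjusted p of 0.0116). Ncam1, another neural adhesion molecule, rose from 8.35 and 5.70 to 12.9 and 12.2 RPM, and Fyn, a kinase dephosphorylated by PTPRZ1, fell from 79.8 and 93.3 to 60.7 and 59.0 RPM. Of the ALK adaptors, 6 of 7 were tested, 1 rose and 2 fell (50% called). Frs2 rose from 40.6 and 40.3 to 56.4 and 55.0 RPM, and Shc2 and Grb2 fell by 0.57 and 0.43 on the log2 scale, at adjusted p of 0.0449 and 0.0472 by limma. Neither fall was called under TMM or median-of-ratios scaling or by edgeR (0 of the list called lower).

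Among the enzymes that build the sugar chains, calls went in both directions, with the largest fall at Hs3st1. Of the 7 that start the chains, all tested, 1 rose and 2 fell (42.9% called). Fam20b, the xylose kinase, rose from 89.0 and 91.0 to 119 and 121 RPM, while the xylosyltransferase Xylt2 and the xylose phosphatase Pxylp1 fell, by 0.50 and 0.57 on the log2 scale. For heparan sulfate 16 of 25 genes were tested, 2 rose and 2 fell (25% called). Hs2st1, the 2-O-sulfotransferase, rose from 110.1 and 107 to 145 and 139.6 RPM, and Extl2 by 0.42 on the log2 scale. Hs3st1, which makes the antithrombin-binding site, fell from 4.70 and 1.95 to 0.450 and 0.400 RPM (a log2 fold change of -1.95 ± 0.40, SE, with an adjusted p of 0.028 by limma). The pseudocount of 0.5 sets this value, since the means were 7.82-fold apart and edgeR, on the recovered reads, gave -2.98. The N-sulfotransferase Ndst3 fell by 0.79 on the log2 scale. For chondroitin sulfate 13 of 16 were tested, 0 rose (2 under TMM and 1 under median-of-ratios scaling) and 1 fell by limma (0 under either scaling), or 7.69% called. That gene was Chst7, at 2.90 and 2.90 RPM in LLC and 1.35 and 0.450 RPM in LLC-Chem.

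Of 17 other proteoglycan cores 12 were tested, 2 rose and 2 fell (3 and 1 under TMM or median-of-ratios scaling), or 33.3% called. Tgfbr3 (betaglycan), a TGF-beta co-receptor that carries heparan and chondroitin sulfate, rose from 231 and 227 to 483 and 541 RPM, with a log2 fold change of 1.16 and a standard error of 0.11 (limma, adjusted p of 0.01). Versican (Vcan), a large chondroitin sulfate proteoglycan of the matrix, rose from 256 and 282 to 461 and 479.6 RPM (limma gave 0.80 on the log2 scale at an adjusted p of 0.0141). Cspg4, a pericyte proteoglycan, fell from 4.65 and 3.85 to 1.90 and 0.850 RPM, and Gpc4, a glypican, from 14.8 and 19.0 to 10.9 and 8.15 RPM.
Of 13 syndecan partners and sheddases 12 were tested, 3 rose and 3 fell (4 and 2 under TMM), or 50% called. Adam17 rose from 169 and 184 to 286 and 298 RPM (limma gave 0.73 on the log2 scale at an adjusted p of 0.0144), and the membrane metalloproteinase Mmp14 from 674 and 799 to 1233 and 1157 RPM. Mmp9, a gelatinase, fell from 89.1 and 112 to 19.9 and 15.2 RPM, with a log2 fold change of -2.49 and a standard error of 0.18 (limma, adjusted p of 0.00665). Endothelial, mural and leukocyte marker sums were also lower in LLC-Chem, and any link of Mmp9 to them was not tested. Tiam1, an exchange factor that binds syndecan tails, fell from 23.3 and 32.2 to 16.3 and 11.6 RPM.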

How the data were processed

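RNA was sequenced from 4 pools of LLC tumors, 2 per group. STAR alignment to GRCm38.p4 and HTSeq counts per Ensembl gene were the authors' steps, and the deposited RPM cover 47729 genes, 1 library per pool. Software versions and the use of strand are not given in the sources used here. All nonzero values (100%) were whole steps to within 0.01 of a step, with nearly equal totals, from which a scaling to 20000000 reads was inferred and the depth fitted. At depths of 28470000 to 33990000 reads, the spread between pools was on average far above counting noise, and this was not split by expression level.

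The main test was limma 3.58.1 (R 4.3.3, eBayes with trend, two-sided, Benjamini-Hochberg adjustment) on log2(RPM + 0.5) of the 13694 genes whose mean reached 1 RPM. Scripts were tested on simulated data. The labels give 2 replicas per group, which the study describes as pools of tumors. Replicas of a group differed by far more than sampling noise (chi-square per gene of 66.2 for LLC and 27.1 for LLC-Chem). On the recovered reads, edgeR 4.0.16 called 1552 genes higher and 1613 lower, and DESeq2 1.42.0 called 1877 higher and 2266 lower. Other alternatives were pseudocounts, TMM and median-of-ratios scaling, filters, eBayes without trend, a replicate block and leaving out each pool. Lengths and coordinates are from GENCODE M21 (GRCm38), which holds 98.9% of the identifiers. For a symbol with several identifiers the most abundant was used.

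The members and lists were chosen with earlier results of these data known. Named genes are the 10 members, Rarres2, up to 4 called genes per pathway list with non-overlapping pools (those with the largest log2 fold change) and any list gene whose mean over the 4 pools exceeded 1000 RPM, and the 5 genes nearest to Ptn and to Mdk. Csf1r, Adgre1, Ptprc, Itgam, Itgax, Ncr1, Pdgfra, Col1a1, Col1a2, Fam150a, Fam150b and single markers were named after their values were seen. No protein sequences were used here.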

Additional observations from a re-analysis of the deposited data

How the results depend on the processing

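With 1 pool left out, the log2 fold change of Ptn ran from 4.28 to 4.50, that of Mdk from -1.06 to -0.49 and that of Sdc3 from -1.53 to -0.47. Which genes are called is less firm. With no filter on low values (26260 genes tested), limma called 1 gene higher (3394 at an unadjusted p under 0.05) and 0 lower (4003), with 0 members higher (3 unadjusted) and 0 pathway genes higher (23) or lower (29). With 1 pool left out, limma called 0 genes higher (998 to 2359 unadjusted) and 0 lower (1580 to 2823), with 0 members and 0 pathway genes in either direction, the smallest adjusted p being 0.0542. An arm of 1 pool is there assumed to vary like the other. Pools with the same replicate number did not deviate together (correlation -0.140 across genes), and no source used here says that equal numbers share animals. With the replicate number as a block, limma called 549 genes higher and 1064 lower, 2 members higher, and 4 pathway genes higher and 5 lower. Pairing the pools crosswise, a choice made after seeing the data, gave 1579 genes higher and 2320 lower, 1 member lower, and 11 pathway genes higher and 22 lower. Pathway genes called higher were 19 with DESeq2 and 5 with eBayes without trend, and those called lower 9 with edgeR and 8 without trend. The causes were not tested. None of the 26 pathway genes named with a test changed sign under any alternative that tested it (of 15). Of the members, Sdc4 changed sign when the second LLC pool was left out. For Ptprz1, Alk and Ltk, at 0 to 5 reads per pool, depth sets the limit.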
